A study of Mus musculus with 6 samples.

Results

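The Notch receptors *Notch1*, *Notch2*, *Notch3* and *Notch4*, the ligands *Dll1*, *Jag1* and *Jag2*, and the target genes *Hes1*, *Hey1* and *Heyl* were followed in differentiating muscle cells with and without *Phf2*. Members were picked as named Notch genes with earlier results of these data known, and found by gene symbol. All 10 were among the 55401 rows of the count matrix and among the 17310 genes that passed the filter on low counts. The libraries were polyadenylated RNA of C2C12, an established mouse myoblast line, harvested 2 d after the switch to medium with horse serum, in which the cells leave the cell cycle and fuse. Control cells (3 libraries) carried *Phf2* and had received Cas9, ZsGreen and a guide without a mouse target, and the labels call them wild type. *Phf2* KO cells (3 libraries) had received Cas9, ZsGreen and a pool of guides against *Phf2*, which encodes a demethylase of H3K9me2. Each group was 1 sorted pool rather than a clone, and the replicates were wells of 1 experiment, so p-values measure the spread between wells, which may be technical, and a difference between the pools cannot be told apart from an effect of *Phf2*.

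The deposited totals of estimated counts ranged from 56821143 to 58507833 in control libraries and from 52526109 to 67502788 in *Phf2* KO libraries. They are larger than the number of read pairs, since 1 count stood for 74.98 to 74.99 covered bases in single-transcript genes and the reads were 150 bp. The *Phf2* mRNA averaged 100.8 ± 4.73 CPM in control and 39.1 ± 1.78 CPM in *Phf2* KO cells (SD, n = 3 each), where CPM is the estimated count scaled to a common library size after TMM normalization. Its adjusted p was 8.32e-09 (quasi-likelihood test of edgeR, adjusted by Benjamini-Hochberg), and all adjusted p-values come from this fit unless another is named. Of the 17310 genes, 1122 (6.48%) passed an adjusted p of 0.05, with 557 (3.22% of those tested) higher in *Phf2* KO than in control cells and 565 (3.26%) lower.

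Notch is a receptor that is cleaved when a ligand on a neighbouring cell binds and pulls on it. The freed intracellular domain enters the nucleus, joins the DNA-binding protein RBPJ and switches on genes such as those of the HES and HEY repressors. In muscle, this signal is known to hold myoblasts and satellite cells in an undifferentiated state.

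None of the 10 Notch genes passed the threshold in edgeR's quasi-likelihood test, where 6.48% of all genes did. The count was also 0 of 10 with edgeR's exactTest and limma-voom and 0 of 9 with DESeq2, which gave *Notch4* no adjusted p. Before adjustment, 5 of the 10 genes (*Notch3*, *Dll1*, *Jag2*, *Hes1* and *Heyl*) had a p under 0.05, against 19.4% of all genes tested, and each of these had a negative log2 fold change. The unadjusted count was 3 with exactTest, with DESeq2 and with limma-voom. The log2 fold changes of *Phf2* KO over control ran from -0.45 to 0.66 with a median of -0.17, where the median over all genes tested was -0.00096, and 7 were negative and 3 positive. Libraries of both groups did not overlap for 2 members (*Dll1* and *Jag2*), where 25.1% of all genes did not overlap. The call depended on single libraries in 2 cases. Without control replicate 3, *Heyl* had an adjusted p of 0.0306, and without *Phf2* KO replicate 2, *Hes1* had an adjusted p of 0.0288.

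**Figure D1:**
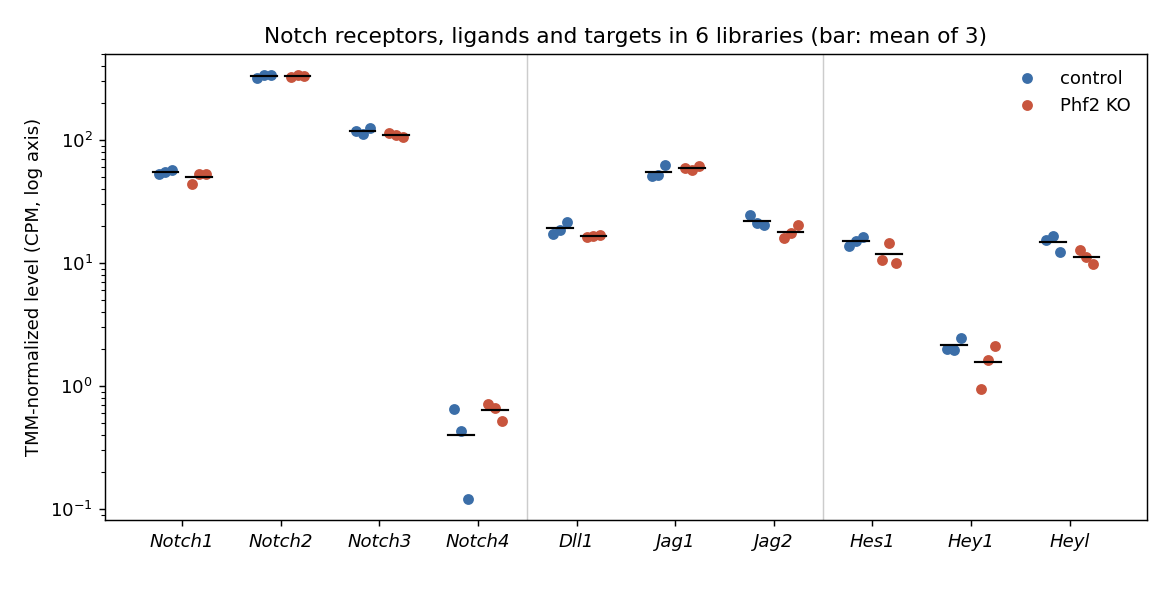
TMM-normalized level (CPM, log axis) of the 10 Notch genes, with 1 point per library, control in blue and *Phf2* KO in red, and a bar at the mean of 3 libraries. The groups are separate for *Dll1* and *Jag2* and overlap for the other 8 genes, and *Notch2* is near 330 CPM in both groups (329.6 and 330.9).

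Among the receptors, *Notch2* (ENSMUSG00000027878, GRCm38 chromosome 3, 98013527 to 98150361, plus strand), a receptor of satellite cells and many other tissues, differed least. Its levels were 317.4, 336.8 and 334.5 CPM in control replicates 1, 2 and 3, and 326.4, 336.6 and 329.6 CPM in *Phf2* KO replicates 1, 2 and 3. The *Phf2* KO libraries lay inside the control range. The fitted log2 fold change was 0.0056 with a 95% interval from -0.083 to 0.094 (adjusted p = 0.967). Its sign was not fixed, since it was negative after upper-quartile scaling or without control replicate 1 or *Phf2* KO replicate 2.

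*Notch3* (ENSMUSG00000038146, chromosome 17, 32120820 to 32166852, minus strand), best known from vascular smooth muscle and also present in myogenic cells, had 118.8, 112.3 and 124.1 CPM in control libraries and 113.9, 110.5 and 105.8 CPM in *Phf2* KO libraries. The highest *Phf2* KO library exceeded the lowest control library, so the groups overlapped. On the log2 scale the difference was -0.11 (95% interval -0.21 to -0.0013), and the adjusted p was 0.251. *Notch1* (ENSMUSG00000026923, chromosome 2, 26457903 to 26516663, minus strand), the receptor first linked to the block of myogenesis, had 52.6, 54.4 and 56.5 CPM in control libraries and 44.0, 52.9 and 52.3 CPM in *Phf2* KO libraries. Only *Phf2* KO replicate 1 stood clearly below the control libraries. Its log2 difference was -0.13 (95% interval -0.28 to 0.018, adjusted p = 0.329). Exons of *Notch1*, *Notch3* and *Dll1* overlap exons of non-coding genes on the opposite strand, and those of *Notch2* overlap a gene on the same strand. The library kit kept strand, but the strand setting of the counting is not given in the sources used here, so such reads cannot be assigned with certainty.

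*Notch4* (ENSMUSG00000015468, chromosome 17, 34564268 to 34588503, plus strand), a receptor typical of endothelium, was close to absent. It had 37, 25 and 7 estimated counts in control libraries and 44, 35 and 35 in *Phf2* KO libraries, which is 0.649, 0.429 and 0.120 CPM against 0.715, 0.666 and 0.517 CPM. Control replicate 3 was the low library and the groups overlapped. The interval of its log2 fold change reached from -0.54 to 1.86 around 0.66 (adjusted p = 0.589).

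The 3 ligands did not share a direction. *Jag2* (ENSMUSG00000002799, chromosome 12, 112907819 to 112929776, minus strand), a Serrate-type ligand, had 24.3, 21.1 and 20.5 CPM in control libraries and 15.9, 17.6 and 20.4 CPM in *Phf2* KO libraries. The 3 *Phf2* KO libraries were all under the control libraries, although *Phf2* KO replicate 3 nearly touched control replicate 3. The means were 21.9 ± 2.06 CPM in control and 17.97 ± 2.27 CPM in *Phf2* KO cells (SD, n = 3 each). The difference of -0.29 on the log2 scale (standard error 0.103) did not pass the threshold (adjusted p = 0.128).

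*Dll1* (ENSMUSG00000014773, chromosome 17, 15367354 to 15376872, minus strand), the Delta-type ligand required to keep muscle progenitors from differentiating in the embryo, had 17.3, 18.6 and 21.4 CPM in control libraries and 16.1, 16.6 and 16.8 CPM in *Phf2* KO libraries. The groups did not overlap, and the *Phf2* KO libraries were closer together (SD 0.358) than the control libraries (SD 2.08). The fitted difference was -0.21 on the log2 scale (95% interval -0.41 to -0.0076), with an adjusted p of 0.239.

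*Jag1* (ENSMUSG00000027276, chromosome 2, 137081456 to 137116644, minus strand), the other Serrate-type ligand, had 51.0, 51.8 and 62.6 CPM in control libraries and 59.2, 57.4 and 61.7 CPM in *Phf2* KO libraries. Control replicate 3 was the highest of all 6 libraries, and the other control libraries were the lowest. The log2 fold change was 0.11 with a 95% interval from -0.053 to 0.27 (adjusted p = 0.491).

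The 3 target genes all had negative log2 fold changes, from -0.36 to -0.45, and none passed the threshold. *Heyl* (ENSMUSG00000032744, chromosome 4, 123233556 to 123249875, plus strand), a HEY repressor that Notch induces in satellite cells, had 15.5, 16.6 and 12.3 CPM in control libraries and 12.7, 11.1 and 9.88 CPM in *Phf2* KO libraries. Control replicate 3 lay below *Phf2* KO replicate 1, which made the groups overlap. The means were 14.8 ± 2.25 CPM in control and 11.2 ± 1.44 CPM in *Phf2* KO cells (SD, n = 3 each). The fitted log2 fold change of -0.40 (standard error 0.130) is a difference of -24.0%, and its adjusted p of 0.0948 was the smallest among the members. In the fit with a replicate block the adjusted p was 0.0448, and *Heyl* was then the 1 member past the threshold.

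*Hes1* (ENSMUSG00000022528, chromosome 16, 30064384 to 30067796, plus strand), the classical HES repressor downstream of Notch, had 13.8, 15.1 and 16.2 CPM in control libraries and 10.6, 14.6 and 10.05 CPM in *Phf2* KO libraries. *Phf2* KO replicate 2 lay within the control range and the other *Phf2* KO libraries lay below it. The log2 difference was -0.36 (standard error 0.136, 95% interval -0.65 to -0.064), with an adjusted p of 0.157. *Hey1* (ENSMUSG00000040289, chromosome 3, 8663359 to 8667256, minus strand), a further HEY repressor, was low, with 1.98, 1.97 and 2.46 CPM in control libraries and 0.943, 1.64 and 2.10 CPM in *Phf2* KO libraries. *Phf2* KO replicate 1 was far below the rest and *Phf2* KO replicate 3 lay within the control range. Its log2 difference was -0.45, but its interval ran from -1.08 to 0.17 (adjusted p = 0.447). In RNA of whole wells, fewer cells with a transcript and less of it per cell cannot be told apart.

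**Figure D2:**
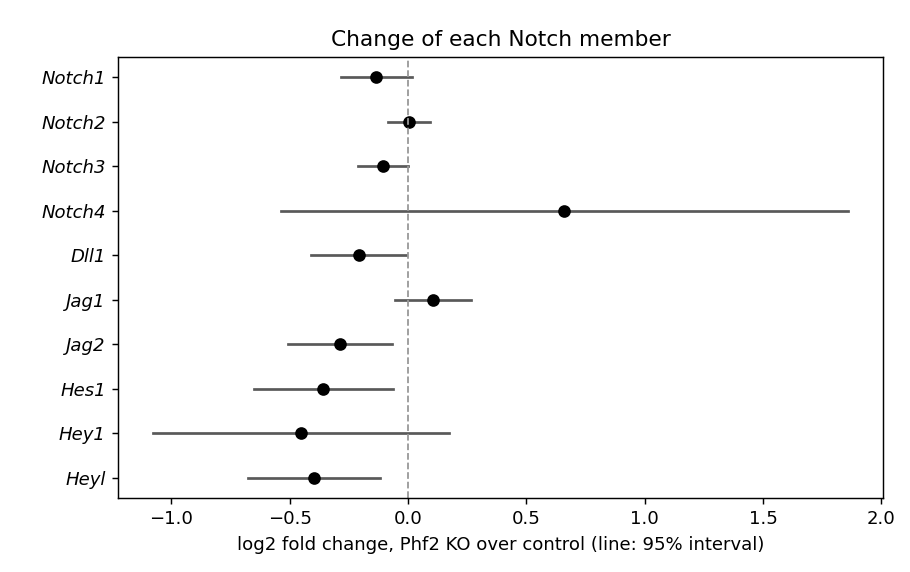
Log2 fold change of *Phf2* KO over control for each Notch gene (point) with its 95% interval (line), with 0 marked by a dashed line. The intervals of *Notch3*, *Dll1*, *Jag2*, *Hes1* and *Heyl* lie below 0 without adjustment for the number of genes tested, and that of *Notch4* is the widest, from -0.54 to 1.86.

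Levels of different genes were compared on the deposited TPM, which is scaled for transcript length. In control cells *Notch2* led with 67.8 ± 2.30 TPM (SD, n = 3), followed by *Notch3* with 31.9 ± 1.75 TPM, *Hes1* with 22.7 ± 2.03 TPM and *Jag1* with 21.6 ± 2.72 TPM. Then came *Notch1* with 12.5 ± 1.08 TPM, *Dll1* with 11.97 ± 0.584 TPM, *Jag2* with 9.17 ± 0.141 TPM, *Heyl* with 6.997 ± 1.32 TPM and *Hey1* with 2.19 ± 0.670 TPM. *Notch4* came last with a mean of 0.157 TPM. The ranges of the 3 control libraries overlapped between *Hes1* and *Jag1* and between *Notch1* and *Dll1*, and no other neighbours in this order overlapped.

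In *Phf2* KO cells *Jag1* with 23.3 ± 1.27 TPM stood before *Hes1* with 17.6 ± 3.64 TPM, and the rest of the order was as in control cells. There the ranges overlapped between *Notch1* and *Dll1* and between *Jag2*, at 6.47 ± 0.910 TPM, and *Heyl*, at 5.54 ± 0.444 TPM. On the TPM scale *Jag2* was 9.32, 9.17 and 9.04 in control libraries and 5.60, 6.41 and 7.42 in *Phf2* KO libraries. This gap between the groups was wider than the one in CPM. In limma fits of log2 TPM, *Jag2* had the smallest adjusted p of the members, and no member passed.

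The summed TPM of the 3 targets was 29.4, 33.0 and 33.3 in control libraries and 22.3, 29.4 and 22.6 in *Phf2* KO libraries. The highest *Phf2* KO library (29.38) stood just below the lowest control library (29.44). The summed TPM of the 4 receptors was 112.4 ± 4.11 (SD, n = 3) in control and 110.2 ± 3.11 (SD, n = 3) in *Phf2* KO cells. For the 3 ligands the sum was 42.8 ± 3.18 and 40.1 ± 2.91, and both sums overlapped between the groups. These sums are given as a description without a test.

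Within the ligands, the makeup differed more than the sum. *Jag1* made up 48.7%, 49.2% and 53.3% of the summed ligand TPM in control libraries and 59.6%, 58.2% and 57.1% in *Phf2* KO libraries. *Jag2* made up 22.7%, 22.5% and 19.5% in control libraries and 14.6%, 16.6% and 17.1% in *Phf2* KO libraries. On TPM the groups did not overlap for either share, nor for *Dll1*, whose mean share was 28.0% ± 0.729 (SD, n = 3) in control and 25.6% ± 0.381 in *Phf2* KO cells. With CPM divided by the length of the gene model in place of TPM, the *Jag1* share was 55.1% in control and 61.1% in *Phf2* KO cells, so its size depended on the scale while its direction did not. The *Jag2* share on that scale averaged 18.5% in control and 15.4% in *Phf2* KO cells, and its groups overlapped. Since the shares of a family add up to the whole, a lower share of 1 ligand raises the others.

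The receptors were dominated by *Notch2* in both groups. Its share of receptor TPM was 60.4% ± 1.31 (SD, n = 3) in control and 62.2% ± 0.112 in *Phf2* KO cells, *Notch3* followed with 28.4% ± 1.17 and 27.3% ± 1.04, and *Notch1* had 11.1% ± 0.552 and 10.3% ± 1.11. *Notch4* held 0.140% and 0.155%, but its ratio of TPM to CPM varied 5.47-fold between libraries, and with CPM divided by length its shares were 0.102% and 0.164%. The *Notch2* share of TPM did not overlap between the groups, at 59.4% to 61.9% in control and 62.1% to 62.3% in *Phf2* KO libraries. With CPM divided by length the groups overlapped for this share, with means of 62.3% in control and 64.1% in *Phf2* KO cells. Among the targets, *Hes1* held 71.2% ± 2.52 of the summed TPM in control and 70.7% ± 3.02 in *Phf2* KO cells. The target makeup thus overlapped between the groups.

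**Figure D3:**
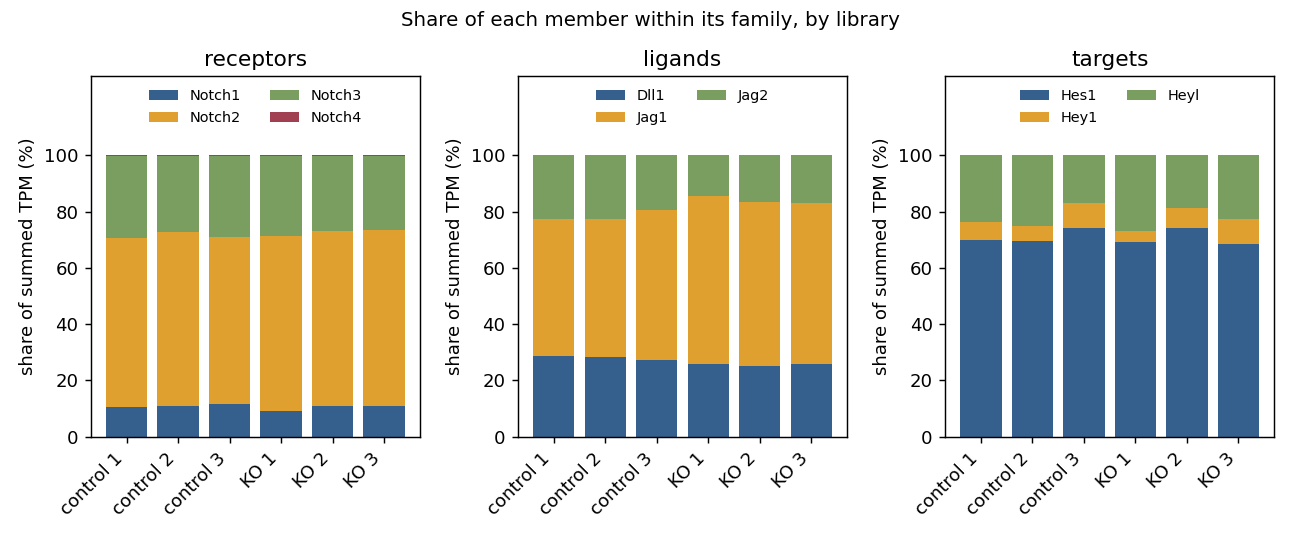
Share of each gene in the summed TPM (%) of the receptors, the ligands and the targets, with 1 stacked bar per library. The *Jag1* section of the ligand bars is 48.7% to 53.3% in control libraries and 57.1% to 59.6% in *Phf2* KO libraries, while *Notch2* takes about the same part of every receptor bar (59.4% to 62.3%).

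The machinery around the receptors was then examined in 9 lists with 74 genes, of which 62 were tested. Of these, 11 passed the threshold, 7 higher and 4 lower in *Phf2* KO cells, where 3.22% and 3.26% of all genes did. Their median on the log2 scale was 0.021, and 26 had an unadjusted p under 0.05, where 19.4% of all genes did. The count of 11 depended on single libraries, since it was 3 without *Phf2* KO replicate 3, 4 without control replicate 2 and 7 without *Phf2* KO replicate 2. With limma on log2 TPM only 1 or 2 of these genes passed, depending on the pseudocount. *Megf10*, *Neurl1a* and *Col6a2* passed whichever library was left out. In the limma fits on log2 TPM, *Col6a2* passed with both pseudocounts. *Megf10* and *Neurl1a* passed with neither, with adjusted p-values of up to 0.1315 and 0.0787.

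**Figure D4:**
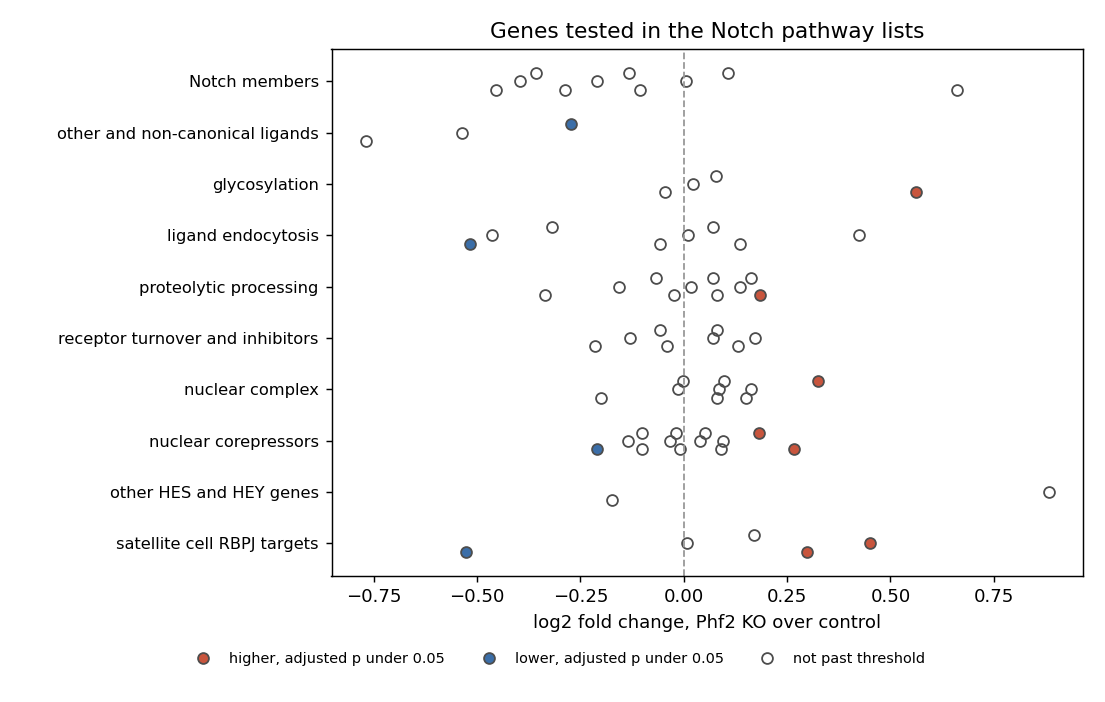
Log2 fold change of *Phf2* KO over control for the tested genes of the 10 Notch members and of 9 pathway lists, with filled points for genes past an adjusted p of 0.05 (red higher, blue lower) and open points for the others. The filled points are spread over 7 lists and both directions, 7 to the right and 4 to the left of 0.

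Of 6 other and non-canonical ligands, 3 were tested and 1 passed, which was lower. *Megf10* (ENSMUSG00000024593), a transmembrane protein with EGF repeats known from satellite cells, had 208.7, 216.3 and 206.7 CPM in control libraries and 165.9, 173.7 and 183.0 CPM in *Phf2* KO libraries. The groups were well apart. It fell by 0.27 on the log2 scale (standard error 0.0471), with an adjusted p of 0.00316, and it was the most abundant gene of its list. The canonical ligands *Dll3* and *Dll4* did not reach the filter, so *Dll1*, *Jag1* and *Jag2* were the canonical ligands that could be tested.

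Of 5 glycosylation genes, 4 were tested and 1 passed, which was higher. *Lfng* (ENSMUSG00000029570, chromosome 5, 140607320 to 140615545, plus strand) encodes Lunatic fringe, which extends sugars on the EGF repeats of Notch and shifts the receptor's preference between Delta and Jagged ligands. It had 13.5, 12.6 and 18.3 CPM in control libraries and 23.0, 22.2 and 20.2 CPM in *Phf2* KO libraries. All *Phf2* KO libraries were above all control libraries, with control replicate 3 closest to them. *Lfng* rose by 0.56 on the log2 scale (standard error 0.127), with an adjusted p of 0.0212. With a library left out, the call was kept in 1 of 6 fits, the one without control replicate 3, and the largest adjusted p was 0.0961. The Fringe relative *Rfng* had 29.4 CPM in control and 31.1 CPM in *Phf2* KO cells (adjusted p = 0.622), and *Mfng* did not reach the filter.

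All 8 genes of ligand endocytosis were tested and 1 passed, which was lower. *Neurl1a* (ENSMUSG00000006435, chromosome 19, 47178820 to 47259441, plus strand), a ubiquitin ligase of the Neuralized family, had 87.8, 89.4 and 85.4 CPM in control libraries and 64.0, 59.0 and 60.5 CPM in *Phf2* KO libraries. The lowest control library was far above the highest *Phf2* KO library. *Neurl1a* fell by 0.52 on the log2 scale (standard error 0.0498), and its adjusted p of 4.79e-05 was the smallest of the Notch members and pathway genes. Its exons overlap those of a second gene model on the same strand.

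Of 10 genes of proteolytic processing, all were tested and 1 passed, which was higher. *Adam10* (ENSMUSG00000054693, chromosome 9, 70678997 to 70780229, plus strand), the protease that makes the ligand-dependent cut in Notch, had 107.1, 110.9 and 110.3 CPM in control libraries and 119.6, 123.2 and 130.5 CPM in *Phf2* KO libraries. The groups did not overlap. *Adam10* rose by 0.19 on the log2 scale (standard error 0.0452, adjusted p = 0.0250). With a library left out, this call was kept in 1 of 6 fits, the one without *Phf2* KO replicate 1, and the largest adjusted p was 0.134. None of the 8 tested genes of receptor turnover passed in edgeR's quasi-likelihood test, and 4 had an unadjusted p under 0.05. The most abundant of them were *Aak1*, a kinase that binds Notch, with 125.8 and 132.1 CPM (adjusted p = 0.455), and *Dtx4*, a Deltex ubiquitin ligase, with 115.7 and 105.7 CPM (adjusted p = 0.153).

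In the nucleus, 1 of 9 genes of the activating complex passed in edgeR's quasi-likelihood test, which was higher. *Kat2a*, an acetyltransferase of this list, was near the threshold, with a mean of 57.0 CPM in control and 49.6 CPM in *Phf2* KO cells (adjusted p = 0.0526). It was called lower in 6 of 12 alternatives, DESeq2 among them, with adjusted p-values from 0.0238 to 0.295. With a library left out it was called in 0 of 6 fits, with adjusted p-values from 0.0597 to 0.157. *Rbpj* (ENSMUSG00000039191, chromosome 5, 53466152 to 53657362, plus strand), the DNA-binding partner of the Notch intracellular domain, had 48.1, 40.2 and 46.1 CPM in control libraries and 58.7, 53.7 and 55.9 CPM in *Phf2* KO libraries. All *Phf2* KO libraries were above all control libraries. *Rbpj* rose by 0.33 on the log2 scale (standard error 0.0690, adjusted p = 0.0118), and the call was lost without control replicate 2 or *Phf2* KO replicate 3, with a largest adjusted p of 0.0675. The deposited TPM of *Rbpj* did not follow its counts, since the ratio of TPM to CPM varied 5.29-fold between libraries, and its TPM ranges overlapped between the groups.

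All 13 corepressors were tested, and 2 passed as higher and 1 as lower. *Spen* (ENSMUSG00000040761, chromosome 4, 141467890 to 141538597, minus strand), a corepressor that binds RBPJ in the absence of Notch signal, had 106.4, 106.3 and 110.7 CPM in control libraries and 93.6, 94.9 and 90.9 CPM in *Phf2* KO libraries. The *Phf2* KO libraries lay below all control libraries. *Spen* fell by 0.21 on the log2 scale (standard error 0.0435, adjusted p = 0.0101), and the call was lost without *Phf2* KO replicate 3 (adjusted p = 0.0530). Exons of *Spen* overlap those of *Zbtb17* on the opposite strand.

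*Tle2*, a Groucho-type corepressor that HES proteins recruit, rose from 101.6 ± 10.7 to 122.2 ± 1.12 CPM (SD, n = 3 per group), with an adjusted p of 0.0280. *Hdac1*, a histone deacetylase of several corepressor complexes, rose from 69.5 ± 0.470 to 78.9 ± 1.64 CPM (SD, n = 3 per group), with an adjusted p of 0.0288. The ratio of TPM to CPM of *Hdac1* varied 1.70-fold between libraries, and its TPM ranges overlapped between the groups. For *Tle2* this ratio varied 1.43-fold, and its TPM ranges did not overlap. Exons of *Tle2* overlap those of a gene on the opposite strand. With a library left out, each call was kept in 1 of 6 fits, that of *Tle2* without control replicate 1 and that of *Hdac1* without *Phf2* KO replicate 1. The largest adjusted p-values were 0.119 for *Tle2* and 0.122 for *Hdac1*.

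**Figure D5:**
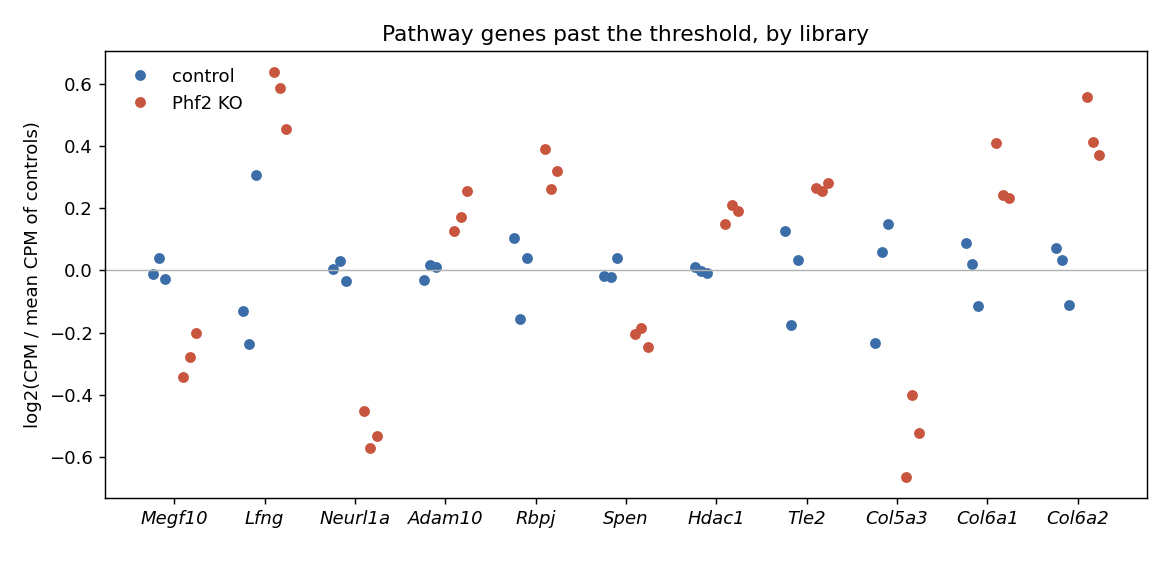
Level of the 11 pathway genes past the threshold in each library, as the log2 ratio of its CPM to the mean CPM of the control libraries (blue control, red *Phf2* KO). The groups are separate for each of the 11 genes, which were chosen by the test on these same counts. Of all genes tested, 25.1% were separate. Control replicate 3 of *Lfng* (18.3 CPM) is the control library nearest to the *Phf2* KO libraries of that gene.

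Sequence around the start sites, most of it upstream and the rest downstream, was read from RefSeq windows of build GRCm38.p6. It was searched on both strands for the motif TGGGAA, the core letters of RBPJ sites, and for the E-box CACGTG. Of all 32851 windows, 25.6% held TGGGAA and 7.15% held CACGTG. *Notch1*, *Notch2*, *Notch3*, *Notch4*, *Dll1*, *Jag1* and *Jag2* had a window, and *Hes1*, *Hey1* and *Heyl* are named only. Of these 7 members 0 had TGGGAA and 0 had CACGTG in their 8 windows. The looser letters CACNNG stand in 87.8% of all windows and separate nothing. Of the 11 pathway genes past the threshold, 9 had a window, and TGGGAA was found in *Lfng*, *Rbpj* and *Spen* and CACGTG in *Lfng* and *Adam10*. Stretches around TGGGAA outside the annotated exons of these 3 genes are shown because the genes passed the test. That of *Rbpj* lies inside the gene, before an internal start site, and its other match falls in an annotated exon and is not shown. They are written 5′ to 3′ on the strand of the gene, with TGGGAA, its reverse complement TTCCCA and CACGTG in capitals.
*Lfng*, chr5:140607186-140607258, plus strand, from -155 to -83 of the start site: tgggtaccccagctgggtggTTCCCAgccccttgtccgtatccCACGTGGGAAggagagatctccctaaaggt
*Rbpj*, chr5:53590177-53590213, plus strand, from -169 to -133 of an internal start site: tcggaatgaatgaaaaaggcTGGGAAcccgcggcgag
*Spen*, chr4:141538598-141538625, minus strand, from -28 to -1 of the start site: aggcgggccgcgcgcgccggTGGGAAgc
In *Lfng* the letters of CACGTG and of a TGGGAA run into each other. A match describes letters in a window and is not evidence of binding.

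The remaining HES and HEY genes were mostly silent. Of 7, 2 were tested and 0 passed in edgeR's quasi-likelihood test, 1 with an unadjusted p under 0.05. *Hes6*, a HES relative that promotes rather than blocks differentiation, had 79.9 ± 6.44 CPM (SD, n = 3) in control and 70.9 ± 6.77 CPM in *Phf2* KO cells, and the groups overlapped. Its adjusted p was 0.230 and, in the fit with a replicate block, 0.0393. *Hes7* was below 0.4 CPM in every library (adjusted p = 0.677). *Hes5*, *Hey2* and *Helt* were at 0 counts in all 6 libraries, so *Hes1*, *Heyl* and *Hey1* were, beside *Hes6*, the genes of these families with a mean above 1 CPM.

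Of 6 genes known as RBPJ targets in satellite cells, 5 were tested, and 2 passed as higher and 1 as lower. The 3 that passed are collagen chains of the satellite cell niche. *Col5a1*, a further collagen chain of this list, did not pass, with means of 1751.9 CPM in control and 1761.6 CPM in *Phf2* KO cells (adjusted p = 0.937). *Col6a1* had 1570.5, 1499.7 and 1364.5 CPM in control libraries and 1964.7, 1749.9 and 1736.9 CPM in *Phf2* KO libraries, and *Phf2* KO replicate 1 was the highest. It rose by 0.30 on the log2 scale (standard error 0.0613, adjusted p = 0.0209). *Col5a3* had 61.6, 75.5 and 80.3 CPM in control libraries and 45.7, 54.9 and 50.4 CPM in *Phf2* KO libraries, and it fell by 0.53 on the log2 scale (standard error 0.105, adjusted p = 0.0235). *Col6a2* rose by 0.45 on the log2 scale (adjusted p = 7.73e-04). The call of *Col6a1* was lost without control replicate 2 or *Phf2* KO replicate 3 (largest adjusted p 0.102). The call of *Col5a3* was lost without control replicate 2, *Phf2* KO replicate 1 or *Phf2* KO replicate 3 (largest adjusted p 0.141), and also without the filter on low counts.

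Other markers moved between the same groups, and their part in the Notch values was not tested. All 7 myotube markers had *Phf2* KO libraries below control libraries and 6 of 7 were called lower. Over all genes tested, 25.1% did not overlap between the groups, in either direction, and 3.26% were called lower. The summed level of the myotube markers was 5899 to 6920 CPM in control and 4666 to 5152 CPM in *Phf2* KO libraries. *Acta1*, the most abundant over all 6 libraries, had a mean of 2491 CPM in control and 1938 CPM in *Phf2* KO cells and was the marker not called (adjusted p = 0.117). *Myh3*, the most abundant in control cells, was called lower, with 2540 and 1866 CPM (adjusted p = 0.0102). Of 6 myoblast markers 4 had negative log2 fold changes, and 2 of these were called lower. *Myf5* (0.14) and *Pax7* (0.17) had positive log2 fold changes and were not called. The sum was 1355 to 1470 CPM in control and 1096 to 1158 CPM in *Phf2* KO libraries, and most of it was *Des* (1088.5 and 843.2 CPM). For 6 proliferation markers, led by *Top2a*, the sums overlapped at 226.0 to 251.2 and 222.6 to 239.7 CPM, and 0 were called by edgeR's quasi-likelihood test, also 0 at an unadjusted p under 0.05.

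Markers of other cell types ranged from near 0 to high. Endothelial markers, of which 1 of 6 was tested (*Tek*), summed to 0.343 to 0.790 CPM in control and 0.192 to 0.628 CPM in *Phf2* KO libraries, with *Tie1* at 0. Adipocyte markers, led by *Fabp4*, summed to 0.361 to 0.824 and 0.133 to 0.517 CPM with *Plin1* at 0. Macrophage markers summed to 10.01 to 13.1 and 6.94 to 8.37 CPM with *Adgre1* at 0, and 1 of the 3 tested (*Cd14*) was called lower, from 8.94 to 5.73 CPM. Pericyte and smooth muscle markers were not low, with sums above the level of *Notch2*. They were carried by *Pdgfrb* and summed to 741.3 to 790.1 and 770.3 to 816.6 CPM, with 0 of the 4 tested called by edgeR and 1 with an unadjusted p under 0.05.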

How the data were processed

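The 6 libraries were grouped by their labels into control and *Phf2* KO. The authors aligned paired reads to mm10 with HISAT2 and had StringTie derive estimated counts per gene; versions are not given in the sources used here. The deposited matrix holds these expected counts as whole numbers, not scaled between libraries, in the unit of covered bases given above rather than in read pairs. The deposited TPM, a signal scaled within each library by the authors, served for levels between genes, and the deposited coverage only to find the unit of the counts. Of 55401 identifiers, 55141 were in GENCODE M21 (GRCm38) without their version.

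The fit used edgeR 4.0.16 under R 4.3.3: filterByExpr (minimum count 10), TMM, robust quasi-likelihood test, Benjamini-Hochberg adjustment over 17310 genes, threshold 0.05, prior count 0.125. The common biological coefficient of variation was 0.135. Intervals are 95% and unadjusted. The procedure was also run on simulated counts with independent libraries and the same dispersion for every gene. That setting is simpler than these data, so it cannot check the calls made here.

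The members and lists were chosen with earlier results of these data known. Named were *Phf2*, every member, at most 4 called genes with the largest change per pathway list (where none was called, the 2 most abundant), and the most abundant gene per marker list; other genes named were chosen after their values were seen. A further marker list is not reported here.

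Alternatives were exactTest, DESeq2 1.42.0, limma-voom (limma 3.58.1), RLE, upper-quartile and library-size scaling, no filter, a minimum of 1 CPM in 3 libraries, the replicate block, counts divided by 4, limma on log2(TPM + 1) and log2(TPM + 0.1), a threshold of 0.01, and leaving out each library. The pairing was checked on deviations from group means over 10923 genes of at least 5 CPM: libraries with the same number correlated at 0.25, 0.236 and 0.158, and others at -0.0131 at most. Deviations within a group cancel out, so positive values for some pairs force negative values for others. The paper describes no pairing, so the block was an alternative. Figures used Python 3.11.15.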

Additional observations from a re-analysis of the deposited data

How the results depend on the processing

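The number of Notch members called was 0 under each alternative except the replicate block, with 1 (lower, *Heyl*), and leaving out a library, where it ranged from 0 to 1 (all and lower). *Notch2* changed sign, with a log2 fold change of -0.0045 after upper-quartile scaling and from -0.024 to 0.021 with a library left out; the cause was not tested. The other 9 members kept their sign in every fit run. Pathway genes called numbered 1 (1 higher, 0 lower) with limma on log2(TPM + 1), 2 (2 higher, 0 lower) on log2(TPM + 0.1), and 3 (1 higher, 2 lower) at an adjusted p under 0.01. With a library left out they ranged from 3 to 8, with 1 to 5 higher and 2 to 4 lower. Calls among all genes numbered 127 and 153 in the TPM fits, 472 at 0.01, and 468 (without control replicate 2) to 1039 with a library left out. A stricter threshold cannot raise these counts, by construction. For the fits with a library left out and for TPM the cause of the lower counts was not tested. Pathway calls numbered 12 with DESeq2, upper-quartile scaling, the filter at 1 CPM and counts divided by 4, and 13 with the replicate block. *Kat2a* was called in each of these and without a filter. The block changed no call among the members and pathway genes other than those of *Heyl*, *Hes6* and *Kat2a*. *Notch4* and *Hey1* had the fewest counts and the widest intervals of the members.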
